A study of Homo sapiens with 4 samples.

Results

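Cells make cholesterol from acetyl-CoA through mevalonate and squalene, and make fatty acids from the same building block through malonyl-CoA. Both routes are under the transcription factors SREBP1 and SREBP2, encoded by SREBF1 and SREBF2, which the escort protein SCAP carries out of the endoplasmic reticulum when sterol is scarce and which INSIG proteins hold back when it is plentiful. Proliferating leukaemia cells use both pathways for new membrane. The genes described here are 36 enzymes, regulators and carriers of these routes, chosen by symbol. Of these, 35 had a row among the 11597 genes of the deposited comparison, and ELOVL6 was not analysed here.

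The cells were MOLM13, a human acute myeloid leukaemia line. Those in 2 libraries had been transduced with a lentivirus that carries a BTG2 cDNA, and those in 2 control libraries with the empty vector. BTG2 is an antiproliferative adaptor protein that brings the CCR4-NOT deadenylase to messenger RNA, and the design text gives its part in mRNA stability as the question. Both groups therefore carried the same vector, with an EF1α promoter, puromycin resistance and the green fluorescent protein ZsGreen. They were collected 3 days after transduction. For all libraries the labels give a spin of 60 min at 1500 rcf and 32 °C, polybrene at 5 µg/mL and 10% serum. All libraries came from a single cell line, and the labels name neither selection nor sorting of transduced cells nor separate cultures, so p-values may measure technical spread alone.

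The deposited table pools the libraries into 1 mean normalized count, 1 log2 fold change and 1 standard error (SE) per gene, so values per library, their spread and their depth were not analysed here. BTG2 itself had a log2 fold change of 5.01 (SE 0.09) per the authors' deposited table, a level 32.3 times that of empty-vector cells, in which cDNA and endogenous transcripts are not separated. Of 12 myeloid leukaemia markers 11 were listed, against 0 of 4 T-cell, 1 of 4 B-cell, 0 of 4 erythroid and 1 of 6 epithelial and stromal markers. Of the 11 myeloid markers 4 were lower and 3 higher in BTG2 cells (63.6% called, against 8.11% of all listed genes). The lower ones had log2 fold changes of -1.14 (SE 0.15) for the granule enzyme MPO, -0.39 (SE 0.05) for lysozyme LYZ, -0.26 (SE 0.05) for the transcription factor CEBPA and -0.09 (SE 0.03) for the granule protein AZU1 per the authors' deposited table. The higher ones had 0.53 (SE 0.17) for the homeobox gene HOXA9, 0.23 (SE 0.03) for the granule enzyme ELANE and 0.23 (SE 0.07) for the receptor FLT3 per the authors' deposited table. The B-cell marker was PAX5, with a mean count of 53.1 and a fitted log2 fold change of -9.28 (SE 1.47) per the authors' deposited table, which does not measure a fold. The part of these marker changes, and of cells of another type, in the results below was not tested.

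Where members changed, they fell, and by modest amounts. Of the 35 genes, 8 had lower transcript levels in BTG2 cells at the authors' adjusted p under 0.05 and 0 had higher ones. The 8 were the sterol enzymes CYP51A1, SQLE and DHCR7, the SREBP retention protein INSIG1, the fatty acid desaturase FADS2, the elongase ELOVL5 and the acyl-CoA synthetases ACSL1 and ACSL4. That is 22.9% of the members, where 4.47% of all 11597 listed genes were lower, 3.64% higher and 8.11% called in either direction. Among genes whose mean count was at least the median of 151, where calls are more frequent, the 8 were 25.8% of 31 members, and 7.60% of 5799 genes were called lower. The members' median log2 fold change was -0.15, with 24 of 35 (68.6%) below 0, while the median over all genes was 0.00 with 49.9% below 0, and that of these more abundant genes was -0.03 with 55.7% below 0. At an unadjusted p under 0.05 there were 15 members, of which PMVK and SCD, 2 genes, lay above 0. CYP51A1 was the only member of the 8 that changed by at least 1.5-fold, and 5 of the 8 were called when fold changes were recentred on the median abundant gene, a shift of -0.03. The shares of all listed genes called under these 2 settings were not computed.

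**Figure D1:**
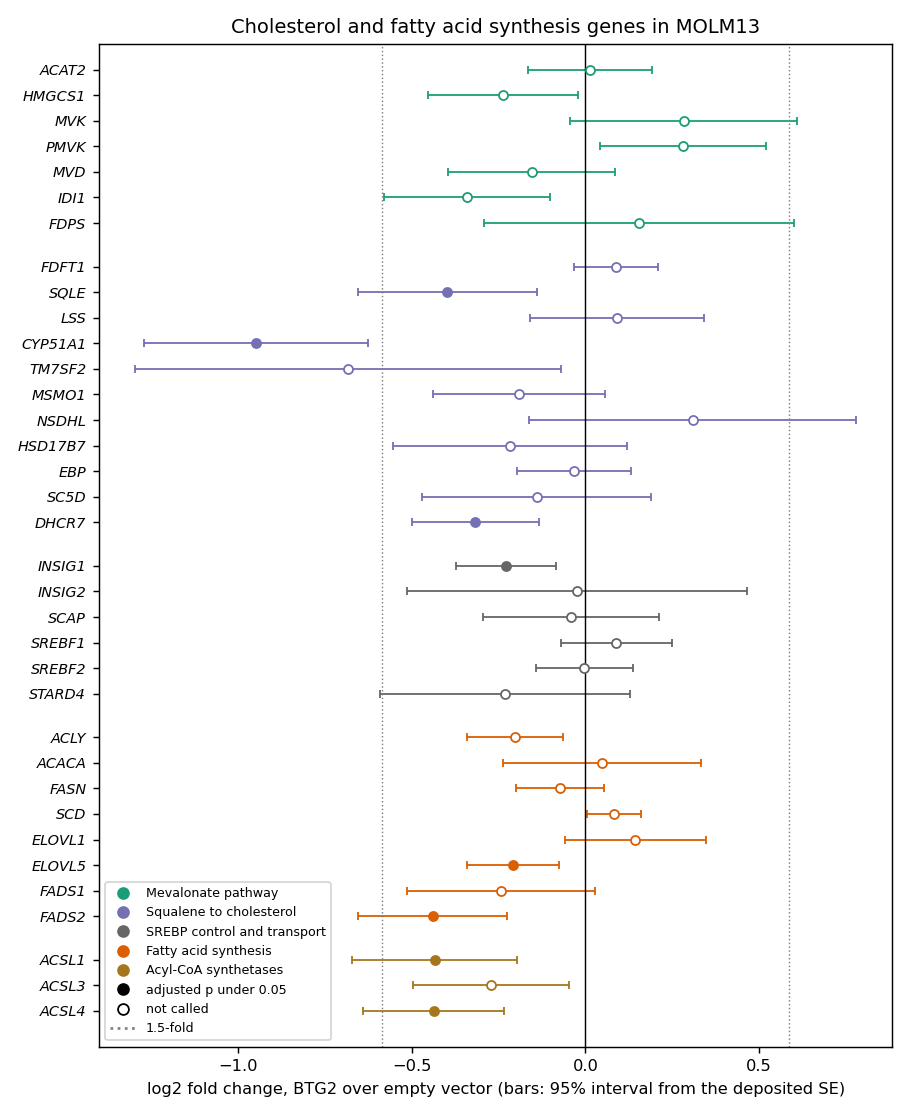
Log2 fold change of each of the 35 genes in BTG2 cells over empty-vector cells, in pathway order within each role, with 95% intervals from the deposited standard errors (2 libraries per group). Filled points passed an adjusted p of 0.05 and dotted lines mark a 1.5-fold change. The 8 filled points lie below 0, and CYP51A1, at -0.95, lies farthest from it.

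The promoters of 4 of the genes that fell and of SREBF2, which did not pass the test, are shown because these genes, all known SREBP targets, gave different values. Each is the 250 bases before the transcription start in RefSeq (GRCh38.p14), for DHCR7 the downstream one of its 2 starts, written 5′ to 3′ along the gene. Capitals mark, on either strand, the sterol element TCACNCCAC to which SREBPs bind, the E-box CACGTG, the CCAAT box and the GC box GGGCGG; on the opposite strand the last pair read ATTGG and CCGCCC, and neighbouring or overlapping GC boxes run together.
CYP51A1, chr7:92134478-92134727, minus strand: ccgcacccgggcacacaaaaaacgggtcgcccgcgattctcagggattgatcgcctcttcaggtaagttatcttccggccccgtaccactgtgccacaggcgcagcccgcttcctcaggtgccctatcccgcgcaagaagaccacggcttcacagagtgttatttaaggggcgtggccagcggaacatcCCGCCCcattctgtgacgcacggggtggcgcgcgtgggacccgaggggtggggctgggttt
DHCR7, chr11:71448394-71448643, minus strand: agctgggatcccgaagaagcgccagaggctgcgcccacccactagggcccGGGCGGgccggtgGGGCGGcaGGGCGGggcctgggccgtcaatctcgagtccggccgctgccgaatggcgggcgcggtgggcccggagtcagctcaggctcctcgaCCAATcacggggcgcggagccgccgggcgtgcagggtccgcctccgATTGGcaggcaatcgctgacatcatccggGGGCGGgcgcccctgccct
INSIG1, chr7:155297628-155297877, plus strand: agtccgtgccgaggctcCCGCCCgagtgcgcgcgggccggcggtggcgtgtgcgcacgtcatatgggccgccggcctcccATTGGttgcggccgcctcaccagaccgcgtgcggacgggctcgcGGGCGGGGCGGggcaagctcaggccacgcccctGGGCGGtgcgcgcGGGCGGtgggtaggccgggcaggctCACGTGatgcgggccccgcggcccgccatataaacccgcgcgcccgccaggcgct
ELOVL5, chr6:53348951-53349200, minus strand: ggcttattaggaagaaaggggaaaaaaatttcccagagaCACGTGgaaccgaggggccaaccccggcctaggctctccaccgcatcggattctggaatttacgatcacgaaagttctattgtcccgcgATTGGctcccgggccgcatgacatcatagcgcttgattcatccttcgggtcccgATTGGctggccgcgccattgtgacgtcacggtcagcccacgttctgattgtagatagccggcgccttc
SREBF2, chr22:41832855-41833104, plus strand: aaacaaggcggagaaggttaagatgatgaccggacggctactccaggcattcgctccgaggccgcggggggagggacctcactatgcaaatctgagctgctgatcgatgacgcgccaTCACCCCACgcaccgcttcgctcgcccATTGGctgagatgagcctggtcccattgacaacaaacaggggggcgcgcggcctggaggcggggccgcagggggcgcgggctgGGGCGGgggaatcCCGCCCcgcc

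Only the SREBF2 window of these 5 held the sterol element, starting at position -133, with a CCAAT box at -106. The INSIG1 window held 1 E-box, at -55, and 1 CCAAT box, at -170. The window of the upstream DHCR7 start, not shown, held 0 matches to the 4 motifs. In the CYP51A1 window a single GC box was found, at -61, and none of the other motifs in exactly these letters. Over all members, 31 genes matched 45 start windows in RefSeq (ACAT2, FDFT1, FASN and SQLE were not matched), and several genes had more than 1 window, some of which overlap. The sterol element was in 2 of the 45 windows (4.44%), those of SREBF2 and of 1 ACSL1 start, against 0.834% of 13074 windows of listed genes and 0.883% of all 35116 windows. CCAAT boxes were in 27 member windows (60%), against 33.4% of windows of listed genes and 32% of all, and GC boxes in 37 (82.2%), against 64.1% and 42.6%. The E-box was in 5 member windows (11.1%), against 8.58% and 6.34%. In the 13 windows of the 7 matched genes that fell, of which 5 belong to ACSL1, the sterol element was in 1 (7.69%), the E-box in 2 (15.4%), CCAAT boxes in 4 (30.8%) and GC boxes in 7 (53.8%). These matches describe the letters of the windows and are not evidence of binding.

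The mevalonate pathway, from acetyl-CoA to farnesyl diphosphate, showed no called change. All 7 genes from ACAT2 to FDPS missed the threshold, which 8.11% of all listed genes passed. Their median log2 fold change was 0.01, with 3 of 7 below 0. ACAT2, the cytosolic thiolase that joins acetyl-CoA units, stood at 0.01 (SE 0.09, adjusted p = 0.983) per the authors' deposited table, or 101% of the empty-vector level with a 95% interval of 89.3 to 114%. HMGCS1, which makes HMG-CoA, had a log2 fold change of -0.24 (SE 0.11, adjusted p = 0.207) per the authors' deposited table. Its interval, 73.1 to 98.5% of the empty-vector level, lies below 100% before adjustment over all genes.

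The kinases of mevalonate lay on the other side of 0. MVK had a log2 fold change of 0.28 (SE 0.17, adjusted p = 0.401) and the next kinase, PMVK, 0.28 (SE 0.12, adjusted p = 0.161) per the authors' deposited table, each 122% of the empty-vector level. MVD, the decarboxylase that follows, stood at -0.15 (SE 0.12) per the authors' deposited table. IDI1, the isomerase that supplies both isoprene units, came nearest to the threshold among these 7, at -0.34 (SE 0.12, adjusted p = 0.0604), or 78.9% of the empty-vector level with an interval of 66.8 to 93.2%, per the authors' deposited table. FDPS, which joins those units into farnesyl diphosphate, had 0.15 (SE 0.23) per the authors' deposited table. Its mean count was 96.8, whereas the copy FDPSP7, which GENCODE release 29 annotates as a processed pseudogene, had 633 and a log2 fold change of -0.27 (SE 0.10, adjusted p = 0.0919) per the authors' deposited table. Reads of the gene and of the copy cannot be told apart here, so the FDPS value is uncertain, and MVK overlaps MMAB, and ACAT2 overlaps TCP1, on the opposite strand.

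The largest change lay in the branch that turns squalene into cholesterol. Of its 11 genes 3 fell and 0 rose, with 8 below 0 and a median of -0.19. The 3 are 27.3% of the group, against 4.47% of all listed genes called lower. CYP51A1, the lanosterol demethylase, had a mean count of 232 and a log2 fold change of -0.95 (SE 0.16, adjusted p = 5.85e-07) per the authors' deposited table. BTG2 cells thus held 51.9% of the empty-vector level of CYP51A1, with a 95% interval of 41.5 to 64.9%. The annotated genes AC000120.2 and AC000120.3 overlap CYP51A1 on the same strand, and CYP51A1-AS1 on the opposite one. Neither these nor its annotated processed pseudogenes had a row in the comparison, and their share of its reads was not analysed. SQLE, the squalene epoxidase that catalyses the first oxygen-requiring step, stood at -0.40 (SE 0.13, adjusted p = 0.0345), or 75.9% of the empty-vector level (63.5 to 90.8%), per the authors' deposited table. DHCR7, the reductase of the last step in one of the alternative routes to cholesterol, stood at -0.32 (SE 0.09, adjusted p = 0.0127), or 80.3% (70.7 to 91.2%), per the authors' deposited table.

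Of the members on either side of CYP51A1 in the pathway, neither passed the test. LSS, the cyclase that makes lanosterol, had a log2 fold change of 0.09 (SE 0.13, adjusted p = 0.851) per the authors' deposited table, with an interval of 89.5 to 127% of the empty-vector level. That interval and that of CYP51A1 do not overlap, though the difference was not tested. TM7SF2, a sterol reductase that acts on the product of CYP51A1, stood at -0.68 (SE 0.31, adjusted p = 0.2) per the authors' deposited table, with a mean count of 94.3 and a wide interval of 40.7 to 95.2% that contains the whole interval of CYP51A1. It overlaps VPS51 on the same strand, a gene that rose by 0.78 (SE 0.11, adjusted p = 1.46e-09) per the authors' deposited table, so its own value is uncertain. LBR, a sterol reductase of the same step that is not a member, had a higher mean count of 1571. Its log2 fold change was -0.04 (SE 0.06, adjusted p = 0.854) per the authors' deposited table, or 97% of the empty-vector level (89 to 106%).

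Further on, MSMO1, a methylsterol monooxygenase, had -0.19 (SE 0.13), NSDHL, the sterol dehydrogenase of demethylation, 0.31 (SE 0.24), and HSD17B7, the ketoreductase of the same complex, -0.22 (SE 0.17) per the authors' deposited table as log2 fold changes. EBP, the sterol isomerase, stood at -0.03 (SE 0.08) and SC5D, a sterol desaturase, at -0.14 (SE 0.17) per the authors' deposited table. FDFT1, which makes squalene, had 0.09 (SE 0.06), or 106% of the empty-vector level (97.7 to 116%), per the authors' deposited table. None of these 6 passed the test. Intervals were wide for NSDHL, 89.4 to 172% of the empty-vector level, HSD17B7, 68.1 to 109%, and SC5D, 72.2 to 114%.

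The transcripts of the SREBPs showed no called change, while that of INSIG1 fell. SREBF2, whose product drives mainly the sterol genes, was at 99.8% of the empty-vector level (90.6 to 110%, SE 0.07 on the log2 scale, adjusted p = 0.995) per the authors' deposited table. SREBF1, whose product drives mainly the fatty acid genes, stood at a log2 fold change of 0.09 (SE 0.08, adjusted p = 0.683), or 106% (95.3 to 119%), per the authors' deposited table. Both intervals leave out a change of 1.5-fold in either direction, as far as the deposited SE, which may measure technical spread alone, holds. SREBF1 overlaps RAI1 on the opposite strand. The abundance of a transcript does not measure cleavage of the SREBP proteins, which was not assayed.

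INSIG1, itself a well-known SREBP target, had a mean count of 1106 and a log2 fold change of -0.23 (SE 0.07, adjusted p = 0.0299) per the authors' deposited table. Its level was 85.4% of that in empty-vector cells, with an interval of 77.3 to 94.4%. INSIG2, its relative, stood at -0.02 (SE 0.25, adjusted p = 0.991) per the authors' deposited table, and its interval of 70 to 138% includes the value of INSIG1. SCAP, the escort, had -0.04 (SE 0.13) and the sterol carrier STARD4 -0.23 (SE 0.18, adjusted p = 0.612) per the authors' deposited table. Of these 6 genes 1 fell (16.7%, against 4.47% of all listed genes), a share that rests on 1 gene. The median was -0.03, and 5 lay below 0, among them SREBF2 at -0.00, INSIG2 at -0.02 and SCAP at -0.04 per the authors' deposited table.

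**Figure D2:**
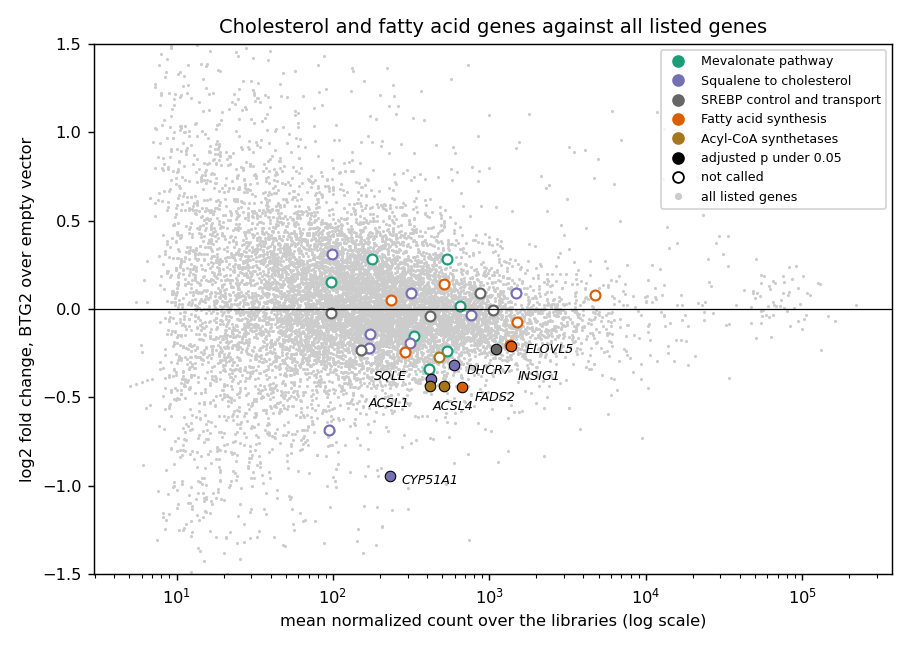
Log2 fold change in BTG2 cells over empty-vector cells against the mean normalized count over the libraries (log scale), for the 35 genes in colour and all listed genes in grey, of which 138 lie beyond the vertical axis. The 8 filled, named genes passed an adjusted p of 0.05 and have mean counts from 232 to 1380.

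In fatty acid synthesis the central enzymes did not pass the test, and a desaturase and an elongase of polyunsaturated fatty acids fell. Of 8 genes 2 fell (25%, against 4.47% of all listed genes) and 0 rose, with a median of -0.14. FADS2, the desaturase that starts the conversion of essential fatty acids into longer polyunsaturated ones, had a log2 fold change of -0.44 (SE 0.11, adjusted p = 0.00162) per the authors' deposited table. This was 73.7% of the empty-vector level, with an interval of 63.5 to 85.6%. ELOVL5, which lengthens the products of that desaturase, stood at -0.21 (SE 0.07, adjusted p = 0.0307), or 86.5% (78.9 to 94.9%), per the authors' deposited table. FADS1, the desaturase that acts after ELOVL5, had -0.24 (SE 0.14, adjusted p = 0.373) per the authors' deposited table, and its interval of 70.1 to 102% of the empty-vector level includes the value of FADS2. FADS1 and FADS2 overlap on opposite strands of chromosome 11 (61792980 to 61867354 for FADS2 and 61799625 to 61829318 for FADS1 in GENCODE release 29, GRCh38), and FEN1, which lies within FADS2, stood at -0.05 (SE 0.09) per the authors' deposited table.

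ACLY, which makes cytosolic acetyl-CoA from citrate for both routes, stood just outside the threshold at -0.20 (SE 0.07, adjusted p = 0.0507), or 86.9% of the empty-vector level (78.9 to 95.6%), per the authors' deposited table. ACACA, the acetyl-CoA carboxylase, stood at 0.05 (SE 0.15) and FASN, the fatty acid synthase, at -0.07 (SE 0.07) per the authors' deposited table. FASN was thus at 95% of the empty-vector level, with an interval of 87 to 104%. SCD, the desaturase that makes oleate, had the smallest standard error of the members and a log2 fold change of 0.08 (SE 0.04, adjusted p = 0.246) per the authors' deposited table, or 106% of the empty-vector level (100 to 112%). ELOVL1, an elongase of very long saturated chains, stood at 0.14 (SE 0.10) per the authors' deposited table. These 5 genes lay between -0.20 and 0.14.

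The acyl-CoA synthetases, which activate long-chain fatty acids for use in lipids or oxidation, were lower in 2 of 3 cases, and all 3 lay below 0. That is 66.7% of only 3 genes, against 4.47% of all listed genes called lower. ACSL4, which prefers arachidonate and is known for its role in ferroptosis, had a log2 fold change of -0.44 (SE 0.10, adjusted p = 0.000791) per the authors' deposited table, or 73.9% of the empty-vector level (64.1 to 85.1%). ACSL1 stood at -0.43 (SE 0.12, adjusted p = 0.00714), or 74.1% (62.8 to 87.3%), per the authors' deposited table. ACSL3, the form found on lipid droplets, had -0.27 (SE 0.12, adjusted p = 0.147), or 82.8% (70.9 to 96.9%), per the authors' deposited table. The intervals of the 3 synthetases overlap. With the statistics scaled by their robust SD over all genes, CYP51A1, ACSL4 and FADS2 were the 3 members still called. The share of all listed genes called after this scaling was not computed.

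For the 27 members that were not called, the intervals rest on the deposited SE. That SE may measure technical spread alone, so they do not bound a change between separate cultures. In 22 of them the 95% interval lay within a 1.5-fold change in both directions. TM7SF2 and STARD4 had intervals that reach a fall of that size, and MVK, FDPS and NSDHL intervals that reach a rise. Before adjustment, 5 of the 27 intervals lay wholly below 0 and 2 wholly above it. These 7 belong to the 15 members with an unadjusted p under 0.05, a limit that 2036 of all 11597 listed genes met. Standard errors of the members ran from 0.04 to 0.31 with a median of 0.12.

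Since the study asks about mRNA stability, 3′ UTRs were read from the transcript with the longest coding sequence of each gene in GENCODE release 29, which need not be the isoform that MOLM13 uses. The 8 genes that fell had a median 3′ UTR length of 1595 bases and 3.18 AUUUA pentamers per kb, a core of AU-rich elements. The 27 not called had medians of 810 bases and 1.08 per kb, and the 10482 listed coding genes with such a transcript 984 bases and 1.51 per kb. Among the genes that fell, 7 of 8 held at least 1 pentamer and FADS2 held 0, against 15 of 27 of those not called, 22 of all 35 (62.9%) and 7059 of the 10482 listed coding genes (67.3%). CYP51A1 held 5 in 1514 bases, INSIG1 6 in 1965 bases and ELOVL5 9 in 1729 bases. IDI1 and STARD4, which were not called, held 11 in 1279 bases and 14 in 3853 bases. These are descriptions of few genes, with ranges that overlap, and no test was made of them.

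Further genes of these routes, and some near them, were listed by role, to be read against the 8.11% of all listed genes called in either direction. Of 8 listed further sterol pathway genes 3 fell and 0 rose (37.5% called), with a median of -0.20. They included ACAT1, the mitochondrial acetoacetyl-CoA thiolase, at -0.47 (SE 0.09, adjusted p = 1.56e-05), and CYB5R3, a reductase that passes electrons to sterol and fatty acid desaturases, at -0.30 (SE 0.10, adjusted p = 0.0286), per the authors' deposited table. ACAT1 is a relative of ACAT2, the cytosolic thiolase of the sterol route, and acts in mitochondria rather than in that route. It is nevertheless counted among the 8 genes, the 3 that fell and the 37.5%. Of 16 further fatty acid synthesis genes 2 fell and 0 rose (12.5% called), with a median of -0.17. These were IDH1, a cytosolic source of NADPH, at -0.52 (SE 0.10, adjusted p = 6.71e-06), and TECR, the reductase that closes each elongation cycle, at -0.36 (SE 0.06, adjusted p = 1.2e-08), per the authors' deposited table.

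Among 12 further genes of SREBP control and sterol sensing 0 fell and 1 rose (8.33% called), with a median of -0.07. The gene was PRKAB1, a subunit of the energy sensor AMPK, at 0.89 (SE 0.20, adjusted p = 0.000431) per the authors' deposited table. Of 15 genes of sterol uptake, storage and efflux 0 fell and 2 rose (13.3% called), with a median of 0.08. SCARB1, a lipoprotein receptor, stood at 0.54 (SE 0.12, adjusted p = 9.43e-05) and NR1H2, the oxysterol receptor LXRβ, at 0.44 (SE 0.15, adjusted p = 0.0435) per the authors' deposited table. The difference between these lists and the members was not tested.

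**Figure D3:**
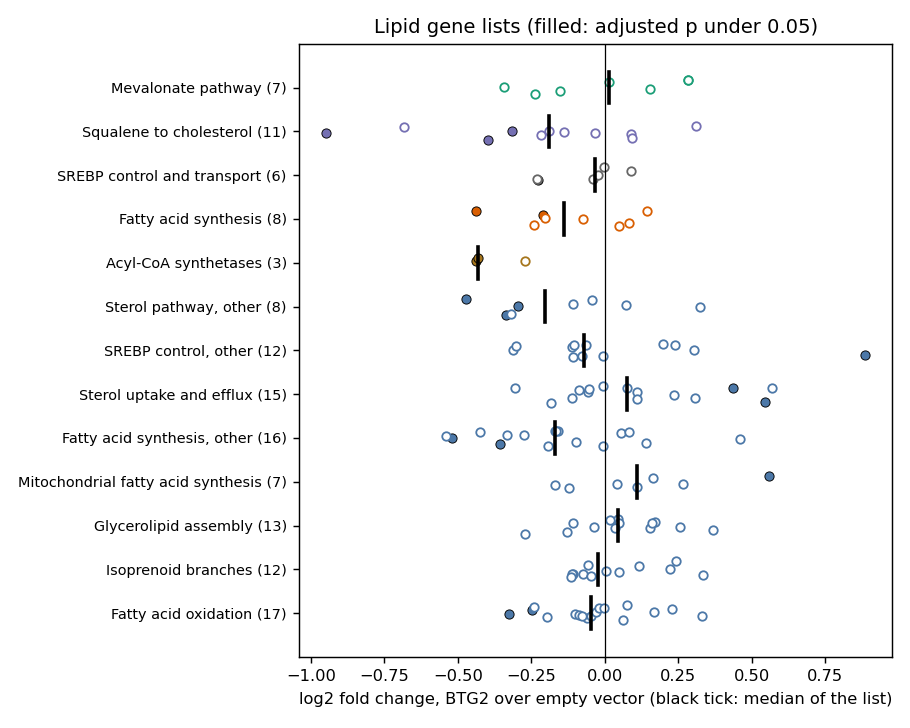
Log2 fold change in BTG2 cells over empty-vector cells for each listed gene of the 5 member groups (upper rows) and of 8 further lipid gene lists (lower rows, blue), with the number of genes in parentheses and the median as a black tick. Filled points passed an adjusted p of 0.05. Called points of the member groups lie below 0, and those of SREBP control, sterol uptake and mitochondrial fatty acid synthesis lie above it.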

How the data were processed

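Expression was compared in MOLM13 between BTG2 cDNA (2 libraries) and empty vector (2 libraries), grouped by sample title. The submitters' processing notes name minimap2 and hg38 without version or role; the labels' protocols describe a directional kit and paired reads of 150 bp, and the series title speaks of long reads; which of them was counted: not given in the sources used here. The authors deposited 1 table of 11597 genes. Per the file headers, its mean column is a signal, the mean normalized count over libraries. Log2 fold changes and their SE are the authors', the deposited test statistic is a score equal to fold change over SE within 2.72e-07, and the deposited adjusted p-value matched a Benjamini-Hochberg adjustment over all listed genes within 1.48e-06. Program, scaling, annotation, filter and use of strand were not given in the sources used here. Depth per library is unknown.

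Members and further lists were chosen with earlier results of these data known, so no list was tested. A gene was called at the authors' adjusted p under 0.05. Intervals of 95% are the log2 fold change ± 1.96 SE, assuming a normal error. Every member is named, with full values for called members and those nearest the threshold. Up to 4 called genes are named per further lipid list, not all of which are reported here. LBR, which was not called, is also named. All 7 called myeloid markers are named. Promoter and transcript sequences came from RefSeq (GRCh38.p14) and GENCODE release 29; in 39 of 45 windows the last 25 bases were found in a transcript of the gene. Adjustment, recentring and scaling were tested on simulated data. Python 3.11.15, numpy 2.4.6, pandas 2.3.3, scipy 1.17.1 and matplotlib 3.10.9 were used.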

Additional observations from a re-analysis of the deposited data

How the results depend on the processing

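Of the 35 genes, 8 were lower at an adjusted p under 0.05, against 4 at 0.01, 10 at 0.1 and 10 when adjusted over the more abundant genes alone. The number was 1 with a change of at least 1.5-fold (CYP51A1), 5 after recentring on the median abundant gene (INSIG1, ELOVL5 and SQLE were no longer called) and 3 with statistics over their robust SD of 1.25 (CYP51A1, ACSL4 and FADS2). In each of these 6 alternatives 0 members were higher. Of the 100 other lipid genes listed, 7 were lower and 4 higher. That is 7% lower and 11% called, near the 4.47% and 8.11% of all listed genes. The alternatives gave 0 and 1 with at least 1.5-fold, 3 and 2 with the robust SD, and 6 and 2 at 0.01. The shares of all listed genes called in each alternative were not computed. The members' median log2 fold change was -0.15, against -0.19 among abundant members and -0.13 after recentring; their mean weighted by the inverse squared SE was -0.09. BTG2 was called higher throughout. ACLY and IDI1 were added at 0.1 and among abundant genes. No paired analysis was possible because the table holds no values per library, and leaving out each replicate was not run for the same reason. Low mean counts limit TM7SF2, FDPS, NSDHL and INSIG2, whose standard errors were 0.23 or more.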

Other observations

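Lists of neighbouring lipid pathways are given beside the 8.11% of all listed genes that were called in either direction. Of 17 listed fatty acid oxidation genes 2 fell and 0 rose (11.8% called), with a median log2 fold change of -0.05. HADHA, a subunit of the mitochondrial trifunctional protein, stood at -0.33 (SE 0.09, adjusted p = 0.00765) and the hydratase ECHS1 at -0.25 (SE 0.07, adjusted p = 0.00412) per the authors' deposited table. Of 7 genes of mitochondrial fatty acid synthesis 1 rose and 0 fell (14.3% called), with a median of 0.11. This was MCAT, its malonyl transferase, at 0.56 (SE 0.18, adjusted p = 0.0323) per the authors' deposited table. Among 13 genes of glycerolipid assembly, 0 were called by the authors' test (median 0.04), with 1 at an unadjusted p under 0.05. Among 12 genes of the isoprenoid branches that leave the mevalonate pathway, 0 were called (median -0.02), with 0 at an unadjusted p under 0.05. No set test was run on these lists.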
